A study of Mus musculus with 20 samples.

Results

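The first hour of the response to LPS was measured on 4 of the 20 arrays of the series, one each for wild-type macrophages, TRIF-/- macrophages, MyD88-/- macrophages and macrophages lacking both adapters (MyD88/Trif double KO). The first 3 arrays come from cells with at least 1 of both adapters and were taken as 3 replicates of an adapter-bearing response, and the fourth as a control without either adapter. The cells were macrophages grown for 6 days from the bone marrow of C57BL/6 mice in medium conditioned by M-CSF-secreting L929 cells, then given 200 ng/mL LPS from Salmonella in serum-free medium for 1 h. On each array RNA of LPS-treated cells (Cy5) was hybridised with RNA of untreated cells (Cy3) that shared their genotype and time, and every value called a ratio here is log2 of LPS over untreated, so that a ratio of 1 is a doubling. Nothing in the labels tells whether the cells of the 4 arrays came from separate animals, so a p-value reflects the spread among these arrays, which may be technical and includes genotype.

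LPS, a lipid of the outer membrane of Gram-negative bacteria, is sensed by Tlr4, which passes the signal on through the adapter proteins MyD88 and TRIF (gene Ticam1). Both routes reach NF-kB and the MAP kinases, whereas TRIF is the route to the kinase Tbk1 and to induction of interferon beta. Primary response genes are those that start without new protein synthesis: transcription factors such as Fos and Egr1, inhibitors that shut the signal off again such as Nfkbia and Dusp1, and early cytokines and chemokines such as Tnf and Cxcl1.

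Between 63.1% and 66.3% of the spots on these 4 arrays were well above background. The probe for Ticam1 read 10.53 (wild-type), 10.59 (TRIF-/-), 10.46 (MyD88-/-) and 7.23 (double-KO) in the untreated channel, as normalized log2 intensity. The array labelled TRIF-/- therefore held Ticam1 transcript at the wild-type level, and of the 4 arrays only double-KO was low. This goes against the label, unless the allele leaves the transcript in place, which the labels do not tell. The array is called TRIF-labelled from here on, and a lower or higher value there is not shown to come from loss of TRIF. The Myd88 probe read between 13.96 and 14.39 on all 4, double-KO included, so it does not check the MyD88-/- label, and results without the TRIF-labelled array are given where they differ. Macrophage markers (Adgre1, Csf1r, Itgam, Cd68, Fcgr1, Mertk, Lyz2 and Cd14, 8 of 8 above background on all 4 arrays) had a median untreated level of 16.35 to 16.73, whereas the medians of the T cell, B cell and stromal marker lists lay between 7.04 and 8.94. Those of neutrophils were 10.63, 9.48, 10.2 and 9.44 in the same order of arrays, and their part in the results was not tested. The labels call the mice gender matched, yet the untreated level of Xist was 10.44 and 10.83 on the wild-type and MyD88-/- arrays against 6.5 and 6.36 on the TRIF-labelled and double-KO arrays, and Eif2s3y of the Y chromosome was high on the latter pair. Each of the 4 arrays lay on its own slide, and the double-KO array was scanned on another day than the other 3, so slide, scan day and the loss of both adapters cannot be told apart.

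A gene was counted as raised by all 3 genotypes if its ratio was at least 1 on each adapter-bearing array, at least 1 above the double-KO ratio on each, and its LPS channel well above background on each. Of 21875 genes with all 4 values, 68 (0.311%) met this rule, among them AI842136 and Dsc3, whose later ratios follow the dye as described further on, and 10 (0.0457%) met the mirror rule for lower genes. Taken singly, 53 genes were lower by that rule in wild-type (0.242%), 25 in TRIF-labelled cells (0.114%) and 12 in MyD88-/- (0.0549%). The 10 became 3 with ratios scaled between arrays, 23 with the scanner's ratios, 39 at a size of 0.6 and 0 at a size of 2. The genes just inside it were Dsc3, Gm2287 and TC1679329, whose smallest value was 1.01, 1.016 and 1.02, and those just outside were Glra1 (0.992), Eid3 (0.966) and Flrt3 (0.964). The test across all genes, limma's moderated test of the 3 adapter-bearing arrays against the double-KO array, called 163 of 21955 genes at an adjusted p under 0.05 (0.742%), 109 of them higher (0.496%) and 54 lower (0.246%). Since there is 1 double-KO array, its spread was assumed to equal that of the other 3. Of the 68 genes, 66 passed this test, which used the same ratios as the rule, so the count describes the rule. The other two, Il1a and Atp8b3, had adjusted p-values of 0.081 and 0.065. Without the TRIF-labelled array the test called 35 genes, and without the MyD88-/- array 638.

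**Figure D1:**
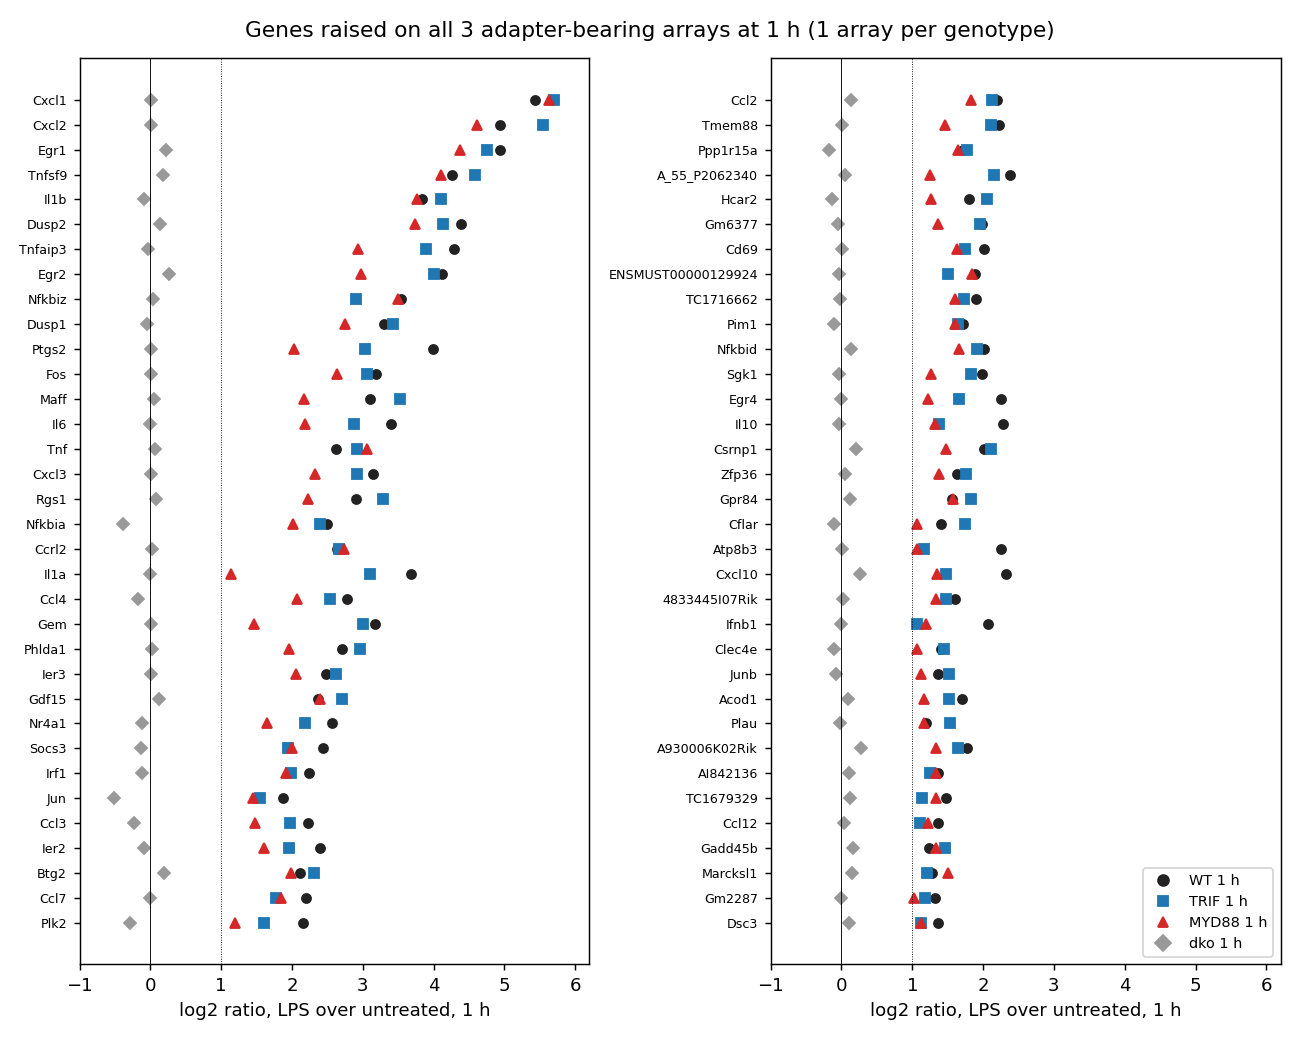
Log2 ratio of LPS over untreated at 1 h (x axis) for the 68 genes raised on all 3 adapter-bearing arrays (y axis, ordered by mean difference from double-KO), 1 point per array. The double-KO points lie between -0.52 and 0.27, while the 3 other arrays lie right of the dotted line at 1.

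The 250 bases before the start of 6 of these genes are shown first, because motifs bound by the factors that LPS activates are known from promoters of this kind. They are from RefSeq (GRCm38.p6), 5′ to 3′ on the strand of the gene, with capitals for the letters of a kappa-B motif (GGG and CC with any 5 bases between), an AP-1 motif (TGANTCA), a CRE (TGACGTCA), an ISRE (GAAA and GAAA with any 2 bases between), a TATA motif (TATAAA) or a serum response element, each searched on both strands.
Cxcl1 (chr5:90890995-90891244, plus strand): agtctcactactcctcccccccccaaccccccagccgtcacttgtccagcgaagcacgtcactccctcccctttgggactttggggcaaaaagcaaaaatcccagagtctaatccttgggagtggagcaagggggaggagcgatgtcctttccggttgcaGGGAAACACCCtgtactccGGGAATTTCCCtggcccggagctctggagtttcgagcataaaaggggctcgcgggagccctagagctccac
Tnf (chr17:35202008-35202257, minus strand): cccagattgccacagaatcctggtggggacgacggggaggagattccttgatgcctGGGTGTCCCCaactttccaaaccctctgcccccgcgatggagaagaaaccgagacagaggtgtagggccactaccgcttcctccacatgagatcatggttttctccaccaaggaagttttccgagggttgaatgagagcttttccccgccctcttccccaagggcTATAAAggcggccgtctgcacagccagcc
Nfkbia (chr12:55492648-55492897, minus strand): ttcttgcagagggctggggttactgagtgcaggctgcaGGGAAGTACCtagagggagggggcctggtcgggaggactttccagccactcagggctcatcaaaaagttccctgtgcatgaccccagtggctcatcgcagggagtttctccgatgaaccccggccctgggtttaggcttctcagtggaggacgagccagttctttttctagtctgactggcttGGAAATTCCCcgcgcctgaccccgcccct
Fos (chr12:85473640-85473889, plus strand): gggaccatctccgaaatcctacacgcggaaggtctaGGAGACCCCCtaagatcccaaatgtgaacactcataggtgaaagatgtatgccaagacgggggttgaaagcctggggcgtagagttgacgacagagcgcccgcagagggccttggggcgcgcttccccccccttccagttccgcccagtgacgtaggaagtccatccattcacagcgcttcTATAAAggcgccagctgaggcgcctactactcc
Ifnb1 (chr4:88522795-88523044, minus strand): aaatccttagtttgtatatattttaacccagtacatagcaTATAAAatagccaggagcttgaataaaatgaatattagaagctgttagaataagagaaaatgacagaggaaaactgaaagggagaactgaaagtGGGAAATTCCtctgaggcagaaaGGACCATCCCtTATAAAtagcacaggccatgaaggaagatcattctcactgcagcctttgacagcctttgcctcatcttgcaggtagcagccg
Il1a (chr2:129309973-129310222, minus strand): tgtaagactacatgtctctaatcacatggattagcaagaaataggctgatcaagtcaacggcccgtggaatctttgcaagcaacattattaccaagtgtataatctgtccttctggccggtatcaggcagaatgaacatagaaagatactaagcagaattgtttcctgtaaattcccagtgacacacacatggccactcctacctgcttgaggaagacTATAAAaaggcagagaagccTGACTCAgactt
The Cxcl1 window holds GGGAATTTCC at bases 71 to 62 before the start, and Nfkbia holds GGAAATTCCC, the motif on the other strand, at bases 29 to 20. Il1a holds no kappa-B letters in this window and an AP-1 motif at bases 12 to 6. Of the 68 genes 45 were in the RefSeq promoter table. A kappa-B motif was in the window of 33 of them (73.3%), against 60.5% of the 13365 measured genes with a promoter entry, so this loose motif is common everywhere. TATA letters were in 13 (28.9%, against 10.5%), a CRE in 6 (13.3%, against 2.66%), ISRE letters in 6 (13.3%, against 3.6%), AP-1 letters in 5 (11.1%, against 6.44%) and a serum response element in 2 (4.44%, against 1.53%). These are shares of windows that hold the letters, with no test, and a match is not a bound site.

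The highest differences from double-KO included several chemokine and cytokine genes. Cxcl1, which attracts neutrophils, had ratios of 5.43 (wild-type), 5.7 (TRIF-labelled cells) and 5.63 (MyD88-/-) against 0.01 in double-KO. It was the gene with the highest difference from double-KO among the 68, 5.58 ± 0.16 (SE, 3 arrays against 1, adjusted p = 3e-10), or 48-fold. Tnf, the macrophage's main early inflammatory cytokine, had ratios of 2.62, 2.92 and 3.06 against 0.06, a difference of 2.81 ± 0.18 (adjusted p = 1.2e-06), and MyD88-/- was the highest of the 3. Neither gene differed by test between 1 genotype and the other two. Cxcl2, a close relative of Cxcl1, reached 4.93, 5.54 and 4.61 (difference 5.02 ± 0.26). Il1b, the precursor of a fever-inducing cytokine, reached 3.84, 4.1 and 3.77 (difference 3.99 ± 0.17). Tnfsf9, the ligand of the T cell costimulator 4-1BB, reached 4.26, 4.59 and 4.1.

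Of 19 chemokine genes measured, of 20 listed, 10 rose (beside 0.496% of all genes), none fell, and the median difference from double-KO was 1.19 against 0 over all genes tested. Those that rose also include Ccrl2, an atypical chemoattractant receptor (2.64, 2.66 and 2.73), Ccl3 and Ccl4, which attract monocytes and T cells, and the monocyte attractants Ccl2, Ccl7 and Ccl12. Ccl5, an interferon-responsive chemokine, had ratios of 0.16, -0.24 and -0.05. Of 28 cytokine and growth factor genes 7 rose: Tnf, Il1b, Il6, Il10, Osm, Tnfsf9 and Gdf15. Il6 had ratios of 3.4, 2.87 and 2.19 (difference 2.82 ± 0.31, adjusted p = 0.00025), the MyD88-/- value being lowest. Without the TRIF-labelled array, 7 chemokines and 4 cytokines passed, and the adjusted p of Il6 was 0.12.

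Of 40 measured members of the immediate early list, mostly transcription factors, 16 were higher than in double-KO and none lower (median difference 0.73), beside 0.496% of all genes higher. Egr1 had ratios of 4.93, 4.75 and 4.37 against 0.22 (difference 4.46 ± 0.19, adjusted p = 2.6e-08), or 22-fold. Fos, a subunit of the AP-1 dimer, had ratios of 3.18, 3.06 and 2.64 against 0.01 (difference 2.95 ± 0.19, adjusted p = 1.7e-06). All 3 arrays stood far from the control for both genes, with MyD88-/- lowest by less than 1. Its partner Jun reached 1.87, 1.55 and 1.45, and its difference of 2.15 includes a double-KO ratio of -0.52, the lowest control value among the 68. Maff, a small leucine zipper factor, reached 3.1, 3.52 and 2.17, and the orphan nuclear receptor Nr4a1 2.57, 2.18 and 1.65. Members that stayed near the control include Mafk (0.09, -0.02 and -0.03) and Crem (-0.17, 0.31 and -0.03). The count was 5 of 40 without the TRIF-labelled array and 28 without the MyD88-/- array.

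Inhibitors of the pathway were raised within the same hour. Of 27 NF-kB feedback genes 6 rose (beside 0.496% of all genes), and none fell. Tnfaip3, the ubiquitin-editing enzyme A20, had ratios of 4.29, 3.89 and 2.93 against -0.04 (difference 3.74 ± 0.34, adjusted p = 4.3e-05). Nfkbiz, a nuclear regulator that NF-kB needs at secondary genes, had 3.54, 2.91 and 3.49 (difference 3.28 ± 0.21). Nfkbia, which holds NF-kB in the cytoplasm, had 2.49, 2.4 and 2.02, with a double-KO ratio of -0.38, and it is the 1 gene among the 68 with a saturated LPS spot on some array. The NF-kB subunits themselves gave small ratios at this hour: Rela 0.39, 0.07 and -0.02, and Nfkb1 0.39, 0.45 and -0.15.

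Of 30 kinase and signalling feedback genes 10 rose, and this and the next counts also stand beside 0.496% of all genes. Dusp2 and Dusp1, phosphatases that switch MAP kinases off, reached 4.38, 4.13 and 3.73 and 3.3, 3.43 and 2.75. Rgs1, a brake on chemokine receptor signalling, reached 2.91, 3.29 and 2.23. Among 10 genes of mRNA decay 2 rose, Zfp36 (tristetraprolin, which destabilises Tnf mRNA) at 1.63, 1.76 and 1.38, and Zc3h12a at 1.27, 0.91 and 0.97. Zfp36l1 (1.13, 1.15 and 0.55) and Zfp36l2 (0.67, 0.66 and 0.4) did not pass, with adjusted p-values of 0.21 each. Of 19 inducible enzymes 6 rose, among them Acod1, which makes itaconate, at 1.7, 1.52 and 1.17, and Plau, a plasminogen activator, at 1.2, 1.54 and 1.16. Of 24 adhesion and activation molecules 6 rose, among them Cd69 (2.02, 1.74 and 1.63) and Icam1 (1.43, 0.96 and 0.87). Without the TRIF-labelled array these counts were 3 (NF-kB feedback), 5 (kinase feedback), 1 (mRNA decay), 0 (enzymes) and 1 (surface molecules).

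Genes of the interferon pathway were mostly not yet up. Of 31 measured, 4 rose (beside 0.496% of all genes): Ifnb1, Irf1, Cxcl10 and Nfkbiz, and the list's median difference from double-KO was 0.04. Isg15 (0.22, -0.14 and -0.18) and Ifit1 (0.37, -0.01 and -0.42), which respond to interferon itself, lay on both sides of 0. Ifnb1, which encodes interferon beta, had ratios of 2.07 (wild-type), 1.06 (TRIF-labelled cells) and 1.19 (MyD88-/-) against -0.01 (difference 1.45 ± 0.28, adjusted p = 0.033). It was above the control on each single mutant, by less than in wild-type, and its call was lost with the mean of all probes (adjusted p = 0.095) and without the TRIF-labelled array (0.27). Irf1, an activator of interferon genes, had 2.24, 1.98 and 1.91 (difference 2.16 ± 0.17). Cxcl10, an attractant of T cells, had 2.33, 1.48 and 1.35 against 0.26 (difference 1.46 ± 0.28, adjusted p = 0.027), and 0.37 without the TRIF-labelled array. In the list of late secondary genes 1 of 26 rose (same background), Ccl12 (1.37, 1.11 and 1.22), while Nos2, the inducible nitric oxide synthase, had -0.18, -0.03 and -0.02. No gene passed among 30 surface receptors of resting macrophages, 20 members of the LPS receptor and adapter list, 12 housekeeping genes or the 9 lists of cell type markers.

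**Figure D2:**
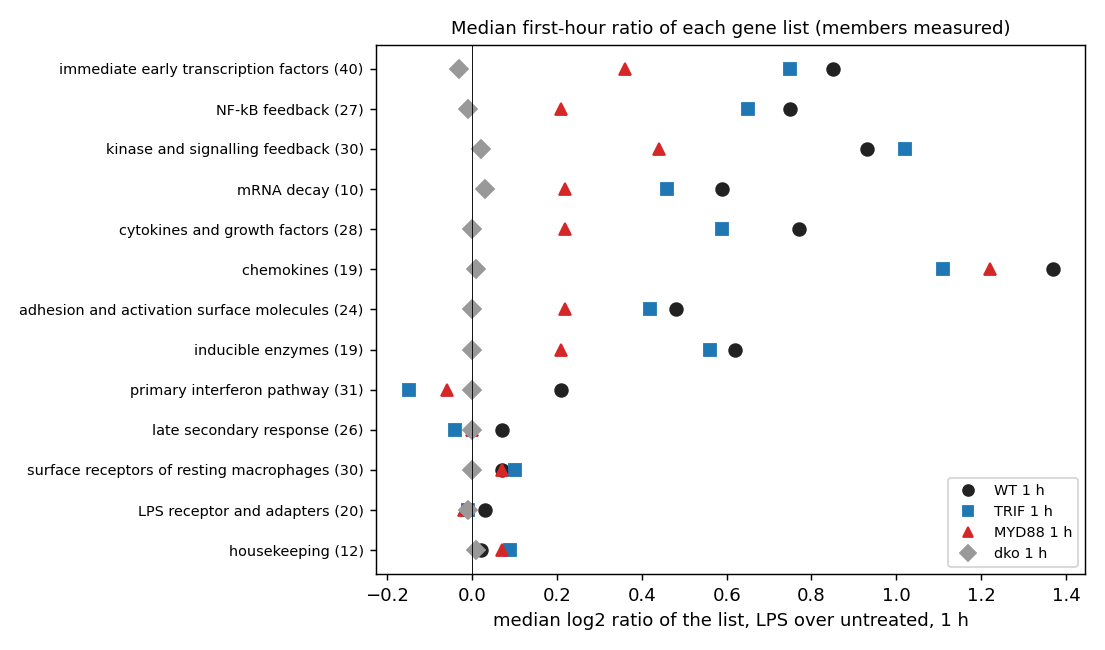
Median log2 ratio at 1 h (x axis) of the measured members of each gene list (y axis, number of members in brackets), 1 point per array. For 7 of the 8 early response lists the MyD88-/- median lies below those of wild-type and TRIF-labelled cells. For chemokines, at 1.37, 1.11 and 1.22, the TRIF-labelled array is lowest.

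Among the 68 genes the median ratio was 2.24 on the wild-type, 1.96 on the TRIF-labelled and 1.61 on the MyD88-/- array, and 0.01 in double-KO. MyD88-/- was the lowest of the 3 for 53 genes, TRIF-labelled cells for 9 and wild-type for 6. The median difference of MyD88-/- from wild-type was -0.43, with 61 of 68 below 0, and that of TRIF-labelled cells from wild-type -0.13, with 45 below 0. The ratios of all kept probes had standard deviations in the order of these medians: 0.299 in wild-type, 0.264 in TRIF-labelled cells and 0.209 in MyD88-/-. The part of this array-wide spread in the medians and counts was not tested. Over all genes the ratios of wild-type and TRIF-labelled cells correlated at 0.74, wild-type and MyD88-/- at 0.69, and TRIF-labelled cells and MyD88-/- at 0.64 (Pearson's r over 21875 genes, which are not independent). With double-KO r was between 0.09 and 0.3. These are descriptions of single arrays. Since 1 array stands for each genotype, genotype and array cannot be told apart.

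By size, 166 genes were raised on the wild-type array (0.759%), 126 in TRIF-labelled cells (0.576%) and 74 in MyD88-/- (0.338%). Besides the 68 shared genes, 47 met the rule in wild-type and TRIF-labelled cells, 49 in wild-type, 11 in TRIF-labelled cells, 4 in MyD88-/- and 2 in wild-type and MyD88-/-, without meeting it on the remaining arrays. These classes rest on a size limit and not on a test of the difference: Icam1 and Zc3h12a, which met it in wild-type, rose by the test over the 3 arrays. Glra1 and Galr2 of the class of 2, and the 4 genes that met the rule in MyD88-/-, Adamtsl2, Adamts17 and the unnamed probes A_55_P2074381 and A_55_P2173408, were named after their values were seen. Of the 47 genes 4 were at least 1 below both other arrays in MyD88-/-. Among the 47 genes the median ratio was 1.56 in wild-type, 1.32 in TRIF-labelled cells and 0.68 in MyD88-/-. The rule chose these genes on the same ratios, so the lower MyD88-/- median was set in advance.

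A gene was counted as weaker in 1 genotype if both other arrays met the rule for a raised gene and its ratio there was at least 1 below the lower of them. This held for 7 genes (0.032%), all weaker in MyD88-/-, and for none in wild-type or TRIF-labelled cells. With ratios scaled between arrays 1 gene was left (Il1a). With the scanner's ratios 20 were weaker in MyD88-/-, 2 in TRIF-labelled cells (Csf2 and Galr2) and 2 in wild-type (Vmn1r85 and Hsd17b6), and Il1a, Egr2 and Gadd45a were not among them. Il1a, the precursor of interleukin 1 alpha (mm9, probe at chr2:129125994-129126053), had ratios of 3.68, 3.1 and 1.14 against 0 in double-KO. Its untreated channel on the MyD88-/- array was not well above background, so its ratio there is uncertain. Ifrd1, a transcriptional coregulator (chr12:40929927-40929986), had 2.31, 2.33 and 0.57 against -0.14. Gem, a small GTPase that blocks calcium channels (chr4:11641692-11641751), had 3.17, 3 and 1.46 against 0.01, and a second probe of Gem gave 2.23, 2.08 and 0.89. In all 3 of these, wild-type and TRIF-labelled cells lay nearer to each other than to MyD88-/-, whose distance from both was set by the rule. The others were Myc, the growth-promoting transcription factor (1.71, 1.53 and 0.45), Gadd45a, a stress gene that acts on MAP kinases (1.54, 1.68 and 0.51), Egr2 (4.12, 4.01 and 2.97) and an unnamed probe on the X chromosome, A_55_P2038313 (2.12, 1.69 and 0.63). Of these 7, Il1a, Gem and Egr2 also belong to the 68.

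**Figure D3:**
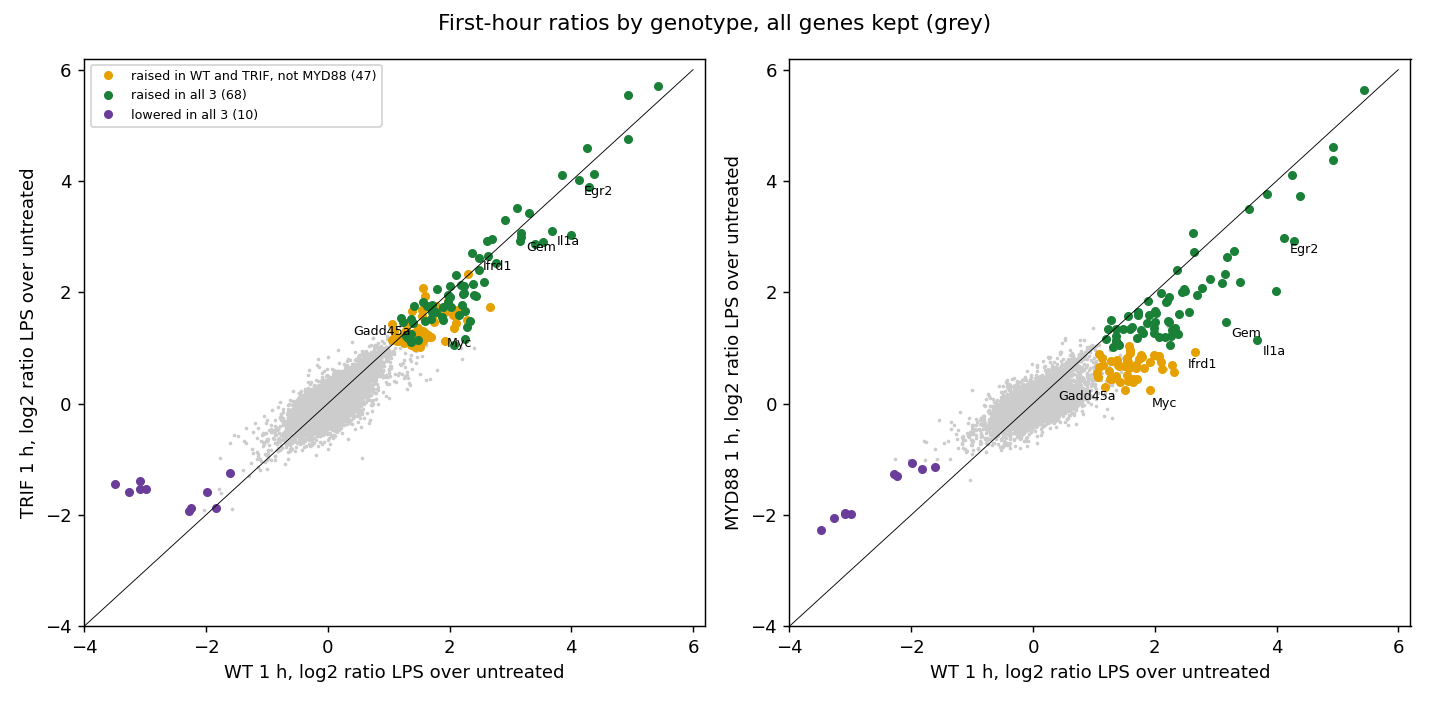
Log2 ratio at 1 h of each gene on the wild-type array (x axis) against the TRIF-labelled (left) and MyD88-/- array (right), with the line of equal ratios. Green points are the 68 genes raised in all 3, orange points the 47 that met the size rule in wild-type and TRIF-labelled cells and not in MyD88-/-, purple points the 10 lower genes, and names mark weaker genes, which lie well below the line on the right only.

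A test of each genotype against the other 2 over all genes compared 1 array with the mean of those 2. For MyD88-/- nearly every gene was given the same SE, so a gene's own gap between those 2 arrays had hardly any weight. In this test the 1 h double-KO array enters neither the difference nor the estimate of spread. With all 5 double-KO arrays, times from 1 h to 16 h count as replicates. The test then gains degrees of freedom only from cells without either adapter, not from responding cells. For MyD88-/- it called 143 genes (0.652%), 108 lower (0.492%) and 35 higher (0.16%). Of the 108, 105 lay above double-KO on average. Il1a was lower by 2.25 ± 0.18 (SE; -2.25), Ifrd1 by 1.76 (-1.76) and Gem by 1.63 (-1.63). With 1 residual degree of freedom, limma found no sign that genes differ in their spread and gave 0.18 as the SE of nearly every gene, which makes its p-values very small (Il1a, adjusted p = 5.7e-30). With all 5 double-KO arrays as the control, which adds degrees of freedom, the test called 107 genes, 81 of them among the 143, and the adjusted p was 0.00033 for Il1a and Ifrd1, 0.00047 for Gem, 0.0095 for Gadd45a, 0.028 for Myc and for A_55_P2038313, and 0.055 for Egr2. With the scanner software's own ratios it called 0 genes (1885 at an unadjusted p under 0.05), and Il1a then differed by -0.09.

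By list, 8 of 30 kinase feedback genes were lower in MyD88-/- by this test, 6 of 40 immediate early genes, 6 of 28 cytokines, 6 of 19 inducible enzymes, 2 of 27 NF-kB feedback genes and 1 of 19 chemokines, beside 0.492% of all genes. These counts rest on the common SE given above. With ratios scaled between arrays, most of these lists also held genes called higher in MyD88-/-, and the chemokines called were all higher. With all 5 double-KO arrays they were 7, 5, 3, 5, 4 and 1, and with the scanner's ratios 0 in every list. Ptgs2, the prostaglandin synthase COX-2, had ratios of 3.99, 3.03 and 2.03 and was lower by 1.48 ± 0.18 (-1.48). Its untreated channel was below background on the TRIF-labelled and MyD88-/- arrays, so its ratios there are bounds and the size of the difference is uncertain. Serpinb2, a protease inhibitor, had 1.92, 1.12 and 0.24. F3, which encodes tissue factor, the starter of blood clotting, had 2.66, 1.73 and 0.92, and its difference in MyD88-/- was not called with all 5 double-KO arrays (adjusted p = 0.17). The untreated channel of Serpinb2 was below background on all 3 arrays. The TRIF-labelled ratio lay between the other two in each, of which F3 alone had untreated signals above background on all 3 arrays.

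For wild-type the test called 26 genes (0.119%), 18 higher (0.0821%) and 8 lower (0.0365%). Ifnb1 was higher in wild-type by 0.94 (adjusted p = 0.029), Cxcl10 by 0.91 (0.039), Ptgs2 by 1.46 (0.036) and F3 by 1.34 (0.029). The last pair were not called with all 5 double-KO arrays, at 0.15 and 0.23. The value for Ptgs2 also rests on untreated signals below background in both other arrays. A second probe of Cxcl10 gave 1.71, 1.39 and 1.83, with MyD88-/- highest, so the higher wild-type value of Cxcl10 was seen with 1 probe and not with the other. Il10, an anti-inflammatory cytokine named after its values were seen, had ratios of 2.28, 1.38 and 1.32 and was higher by 0.94 (0.029). The values of the single mutants lay near each other for Ifnb1 and Il10. Glra1 (2.41, 0.99 and 1.21) and the unnamed probe A_55_P2050178 (2.19, 1 and 0.63) were the other leading genes, the untreated channel being below background on all 3 arrays for Glra1 and on the TRIF-labelled array for A_55_P2050178. The count was 1 with ratios scaled between arrays, 6 with the mean of all probes and 0 with the scanner's ratios (1115 at an unadjusted p under 0.05). For TRIF-labelled cells limma called 0 genes, with 772 at an unadjusted p under 0.05 (3.52% of genes).

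Each ratio is relative to the untreated cells of its own genotype, and the level in those cells differed between arrays. Among the 68 genes the median normalized log2 level of the untreated channel was 12.1 in wild-type, 11.29 in TRIF-labelled cells, 10.83 in MyD88-/- and 9.52 in double-KO, whereas over all genes kept these medians lay between 9.46 and 9.53. The untreated MyD88-/- level was below wild-type for 56 of the 68 genes (median -0.54), and the LPS level for 63 of 68 (median -1.22). In TRIF-labelled cells the untreated level was below wild-type for 47 (median -0.25) and the LPS level for 56 (median -0.42).

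Cxcl1 shows this most plainly. Its untreated level was 12.29, 10.52, 8.21 and 7.95 in wild-type, TRIF-labelled cells, MyD88-/- and double-KO, and its LPS level 17.72, 16.23, 13.83 and 7.96. The ratios on the 3 adapter-bearing arrays were thus nearly equal while the level after LPS was lowest in MyD88-/-. Tnf had untreated levels of 14.27, 13.83, 12.27 and 9.05, and LPS levels of 16.89, 16.74, 15.33 and 9.11. Nfkbia, in contrast, started at 15.96, 16.07, 15.93 and 15.81. Levels are 1 channel of 1 array each and have no test, and in bulk RNA fewer responding cells and less RNA per cell cannot be told apart.

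**Figure D4:**
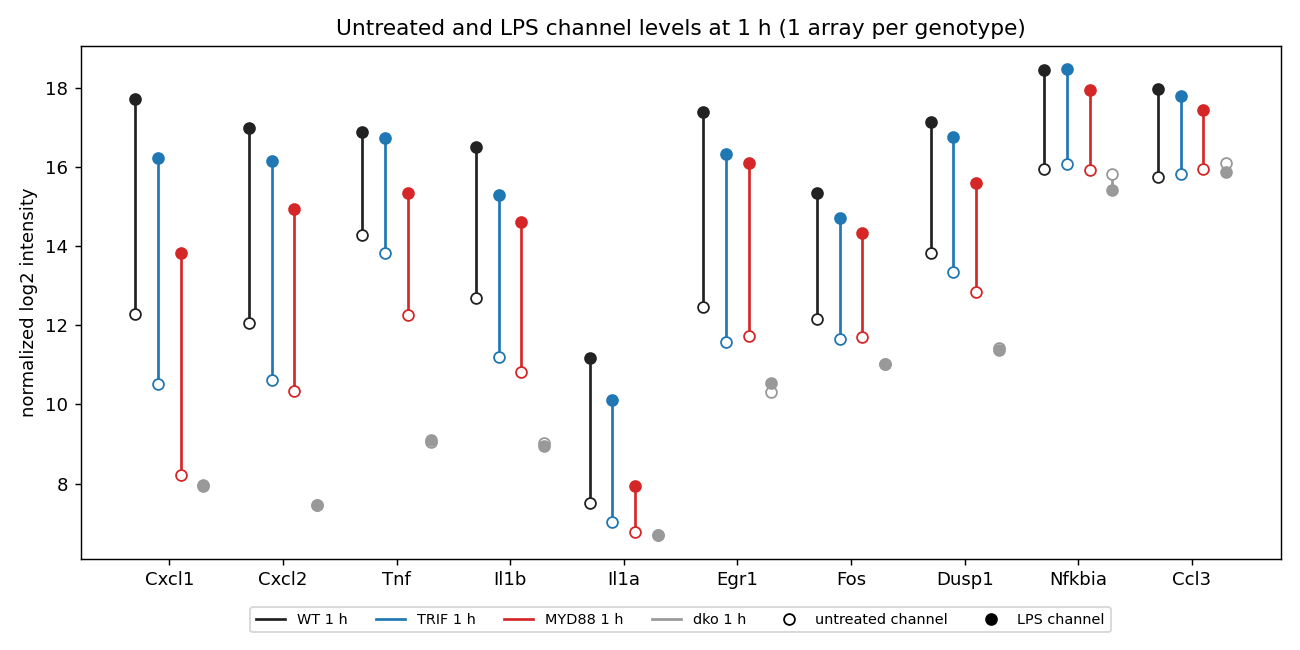
Normalized log2 intensity (y axis) of the untreated channel (open circles) and the LPS channel (filled circles) at 1 h for 10 of the 68 genes (x axis), 1 array per genotype, the line between them being the ratio. For Cxcl1 the lines have nearly equal length on 3 arrays but start at 12.29, 10.52 and 8.21.

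For 5 of the 68 genes other probes passed the filter, and for 3 of these every such probe had a mean ratio of at least 1. The size rule, however, asks for this on each array. In MyD88-/- the other probes of Gem (0.89), Hcar2 (0.59) and Irf1 (0.6) lay below 1, and that of Cxcl10 (1.83) above it. Of the other probes of Cflar, an inhibitor of cell death, 1 had a mean of -0.02 against 1.41 for the main probe. In MyD88-/- the other probes of Cflar gave 0.01, 0.27 and 0.37. Where the untreated channel was below background on all 3 arrays the ratio is only a bound: Egr4 was at least 3.28-fold higher, Atp8b3 at least 2.75-fold, AI842136 at least 2.04-fold and Dsc3 at least 1.8-fold. On each array the bound was set by the higher of the lowest signal well above background and the gene's own untreated signal. AI842136 and Dsc3 did not follow the adapters at later times, a point noticed after their values were seen. In double-KO their ratios at 2 to 16 h lay between 0.94 and 1.55, and on the 1 array with swapped dyes (MyD88-/- at 2 h) they were -1.12 and -1.5. Both were thus brighter in Cy5 on those arrays, whether it held treated or untreated cells. On the 1 h double-KO array, with LPS in Cy5 as well, the ratio was 0.11 for each. Their rise at 1 h is not shown to be one to LPS, and the part of the dye in it was not tested. The other 66 lay between -0.76 and 0.54 on the later double-KO arrays, and 1 of them, TC1679329 (-0.04), was below 0 on the array with swapped dyes.

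The later arrays show which first-hour genes were transient. The 4 h arrays of the 3 adapter-bearing genotypes were compared with their 1 h arrays with genotype as a block, which called 5419 genes (24.7%), 2066 higher (9.41%) and 3353 lower (15.3%), and 904 without the wild-type pair. Of the 68 genes 24 were higher and 13 lower at 4 h. The 1 h ratios that chose the members enter this difference, and the MyD88-/- pair was scanned on different days. Fos went from 3.18, 3.06 and 2.64 at 1 h to -1.27, -1.79 and -1 at 4 h, a fall of 4.32 ± 0.25 (-4.32, adjusted p = 0.0022). Egr1 fell by 4.05 ± 0.3 (-4.05) and Nr4a1 by 2.84 (-2.84), the latter not without the wild-type pair (adjusted p = 0.077). Genes not called against double-KO at 1 h also fell, to ratios below 0 at 4 h. Zfp36l2, an mRNA decay factor, fell by 4.08 (-4.08), to -3.76, -3.58 and -3.17. Zfp36l1 fell by 2.99 (-2.99), to -2.45, -1.82 and -1.88. Klf2, a factor of quiescent macrophages, fell by 2.92 (-2.92), from 0.96, 0.14 and 0.13 to -2.34, -2.85 and -2.35. In the other direction Il6 rose by a further 4.99 ± 0.2 and Ptgs2 by 3.29 ± 0.44. Genes with ratios between -0.23 and 0.31 at 1 h rose as well, the guanylate-binding protein Gbp5 by 5.22, the cystine transporter Slc7a11 by 5.08 and the formyl peptide receptor Fpr2 by 4.28. Serpinb2 (1.92, 1.12 and 0.24 at 1 h) rose by a further 5.86 and Il12b (1.43, 1.01 and 0.38) by 4.99. The untreated channel at 1 h was below background on all 3 arrays for Serpinb2 and Il12b, and on 2 for Slc7a11. The value for Il6 was 1.25 with ratios scaled between arrays (adjusted p = 0.14).

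Over the 5 time points, 36 of the 68 genes had their highest wild-type ratio at 2 h and 9 at 1 h. In TRIF-labelled cells these numbers were 19 and 18, and in MyD88-/- 29 and 9. The highest ratio fell at 8 h for 4 genes in wild-type, 11 in TRIF-labelled cells and 18 in MyD88-/-. The MyD88-/- array of 2 h has swapped dyes, and the part of the dyes in its count was not tested.

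At 2 h the 7 weaker genes no longer stood apart as a group. None was at least 1 below the other genotypes in MyD88-/-, which was the lowest array for 3 of the 7, while the TRIF-labelled array was lowest for 4. Il1a had ratios of 5.93, 5.53 and 5.2 at 2 h, and Ifrd1 had 2.82, 2.24 and 3.35. At 4 h Il1a parted again, at 5.71, 4.7 and 1.91, as did Myc, at 1.35, 2.15 and -1.09, and Gadd45a, at 2.46, 2.76 and -0.72. Gem (4.78, 3.23 and 4.03) did not. The MyD88-/- array of 2 h is the 1 array of the series with swapped dyes, and the part of the dyes in these values was not tested. Cxcl1, equal at 1 h, parted later: its ratio in MyD88-/- was 5.37 at 2 h and 2.04 at 4 h, against 7.66 and 7.01 in wild-type. For Ifnb1 the MyD88-/- ratio was 5.36 at 2 h and 6.09 at 4 h. It was below wild-type at 2 h (5.97) and above wild-type at 4 h (3.88). In TRIF-labelled cells the ratios of Ifnb1 were 2.47 and 2.84.

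**Figure D5:**
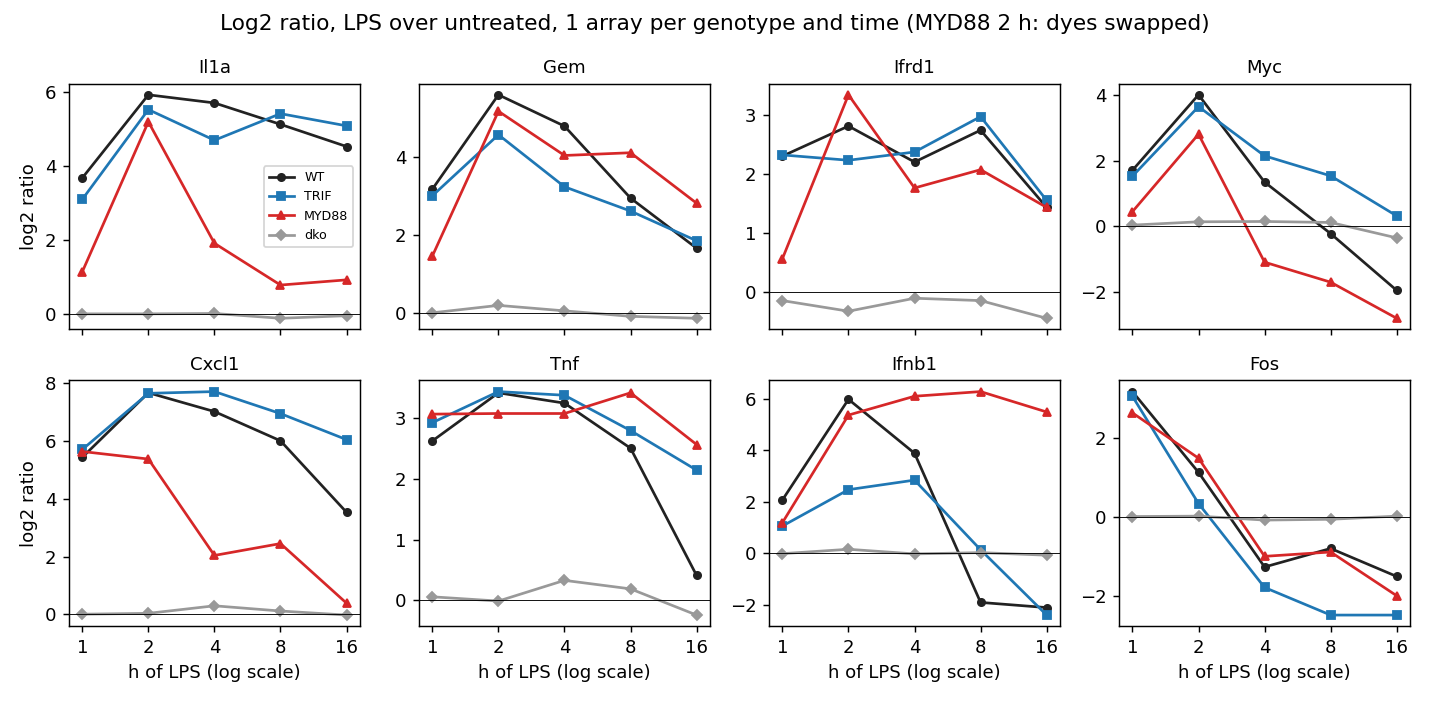
Log2 ratio (y axis) against hours of LPS (x axis, log scale) for 8 genes, 1 line per genotype and 1 array per point. Il1a and Ifrd1 are low in MyD88-/- at 1 h (1.14 and 0.57) and near the other genotypes at 2 h (5.2 and 3.35), whereas Cxcl1 leaves the common value after 1 h.

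The 10 genes lower on all 3 arrays were of another kind. None was in the lists, and 5 were predicted transcripts whose probes resemble one another, shown here because their likeness bears on how the count of 10 is read. The probes are given as deposited, with capitals used for none, and positions in mm9.
ENSMUST00000099035 (chr9:3038257-3038316): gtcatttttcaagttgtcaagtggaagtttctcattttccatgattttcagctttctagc
ENSMUST00000099046 (chr9:3024224-3024283): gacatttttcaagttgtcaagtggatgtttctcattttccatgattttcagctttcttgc
ENSMUST00000099050 (chr9:3004200-3004259): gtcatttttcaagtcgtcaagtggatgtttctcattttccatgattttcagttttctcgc
ENSMUST00000099042 (chr9:3030720-3030779): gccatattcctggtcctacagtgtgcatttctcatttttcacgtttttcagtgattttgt
ENSMUST00000099683 (chr2:98507014-98507072): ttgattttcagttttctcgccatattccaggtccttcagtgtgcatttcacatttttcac
The first 3 probes were 93.3% to 96.6% identical over 58 to 60 aligned bases, and the last pair 92.9% identical over 42 bases, so these rows cannot be read as separate genes. Their letters are those of the mouse major satellite, the repeat that fills pericentromeric chromatin. ENSMUST00000099046 had ratios of -3.08, -1.53 and -1.98 against -0.32 in double-KO, a difference of -1.88 ± 0.39 (adjusted p = 0.041), which was not called with the mean of all probes (0.12), without the filter (0.056) or without the TRIF-labelled array (0.2). ENSMUST00000099035 also passed (0.039), while ENSMUST00000099050 (0.06), ENSMUST00000099042 (0.06) and ENSMUST00000099683 (0.064) did not. The untreated level of ENSMUST00000099046 was 16.89, 16.07, 14.38 and 14.06, so that the lower ratios stood beside higher untreated levels in wild-type and TRIF-labelled cells. At 2 h the ratio was -0.1, -0.36 and -0.2, and at 8 h -2.78, -4.29 and -1.96, and in double-KO it ran from -1.39 at 4 h to 0.86 at 2 h. The signal of these probes therefore moved between arrays without adapters too. On the 1 h double-KO array the ratio of -0.32 lay within the range of the 68 raised genes there (-0.52 to 0.27).

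Ribosomal RNA, read by the probe of Rn28s1, had ratios of -1, -0.68 and 0.24 against -0.01, and its part in the lower ratios was not tested. The other 5 lower genes were Gm3613 (-2.28, -1.93 and -1.27), AK132421 (-2.24, -1.87 and -1.3), A130019P10Rik (-1.83, -1.88 and -1.18), CB193388 (-1.99, -1.59 and -1.06) and C81189 (-1.61, -1.24 and -1.14), and each passed the test against double-KO. None of the 5 passed without the TRIF-labelled array. BB163080, which narrowly missed the size rule in MyD88-/- (-2.26, -1.87 and -1), stayed low, at -3.46, -3.26 and -3.62 at 2 h against 0.01 in double-KO.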

How the data were processed

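Groups, times and dyes were taken from the labels. Agilent's software Feature Extraction, version 10.10.1.1 (mm9), wrote the deposited files, per the file headers, and they give the intensity and background intensity of both channels for each of 43020 non-control spots. The authors' deposited log10 ratio of processed Cy5 over Cy3 equals the series' value table within 5e-10, with column medians of 0, and was used as an alternative. In limma 3.58.1 (R 4.3.3) the mean intensity was corrected by normexp (offset 50) and normalized by loess within arrays, and levels by quantiles of mean intensity between arrays. Control and outlier spots were left out and saturated spots kept. Probes well above background in 1 channel on at least 3 of 20 arrays were kept (28304 of 39429), and the brightest stood for each of 21963 genes. Names came from RefSeq by accession (27234 probes), symbol (3576) or synonym (565), otherwise from the files (8054).

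Ratios were tested with limma's moderated test and Benjamini-Hochberg adjustment over all genes: 3 adapter-bearing arrays against the 1 h double-KO array, each genotype against the other two, and 4 h against 1 h with genotype as a block. The fits against double-KO, of MyD88-/- against the others and of 4 h were run on simulated data with known changes. The simulated noise was independent and alike on every array, so it does not check the p-values of these arrays. The genes named are the targeted adapters, the 15 highest and up to 8 lowest shared genes past the test (7 of the lower genes passed), up to 4 leading members a list and the known members that did not move, up to 8 weaker genes and 4 past each one-against-two test, and 6 list members in each direction at 4 h. Members, lists and rules were chosen with earlier results of these data known. The number of arrays limits the precision. No genome was used here, so exons of probes were not annotated.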

Additional observations from a re-analysis of the deposited data

Results flagged for a closer look

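These results are listed because 1 genotype differed from the other two under the same LPS contrast, by limma's test of that difference over all genes. The test rests on 1 array per genotype. In MyD88-/- the ratio differed by -2.25 for Il1a, -1.76 for Ifrd1, -1.63 for Gem, -1.48 for Ptgs2, -1.28 for F3, -1.27 for A_55_P2038313, -1.17 for Myc, -1.1 for Egr2 and for Gadd45a, and -0.96 for A_55_P2050178. Genes with a less negative or higher ratio there were Rn28s1 (1.09), BB163080 (1.07), 9030419F21Rik (0.99) and 2810040C05Rik (0.98). In wild-type the ratio was higher by 1.46 for Ptgs2, 1.37 for A_55_P2050178, 1.34 for F3 and 1.31 for Glra1, and it differed by -1.63, -1.45, -1.41 and -1.33 for the satellite transcripts ENSMUST00000099683, ENSMUST00000099042, ENSMUST00000099050 and ENSMUST00000099046, whose probes are near-identical in part and count as 1 observation. With all 5 double-KO arrays Egr2, F3, A_55_P2050178 and Rn28s1 were not called in the MyD88-/- comparison (adjusted p = 0.055 to 0.27), nor were Ptgs2, F3 and the 4 satellite transcripts in the wild-type comparison (0.15 to 0.49). All 8 wild-type calls were lost with scaled ratios and with the scanner's ratios, and all 14 of MyD88-/- with the scanner's. Ptgs2, F3 and A_55_P2050178 appear in both comparisons, which share the same 3 arrays.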

How the results depend on the processing

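No paired analysis of the genotypes at 1 h was possible because each has 1 array there, so the groups share 1 number only. The 4 h comparison was paired by genotype. The test of the 3 arrays against double-KO called 163 genes, and 442 without background correction, 1400 with all 5 double-KO arrays, 2111 against 0, 4446 with ratios scaled between arrays and 0 with the scanner's ratios (1602 at an unadjusted p under 0.05). Leaving out 1 array gave 35 (without the TRIF-labelled array) to 638 (without MyD88-/-). The 68 shared genes became 45 with scaled ratios, 115 at a size of 0.6 and 22 at a size of 2. Leaving out 1 array of the rule, an alternative chosen after seeing the data, gave 68 to 115. The 7 weaker genes became 1 with scaled ratios (Il1a), 24 with the scanner's ratios (20 in MyD88-/-, 2 in each other genotype), 66 at 0.6 (64, 1 and 1) and 0 at 2. The MyD88-/- count of 143 became 263 with scaled ratios and 0 with the scanner's. The wild-type count of 26 became 15 without background correction, 46 without the filter, 6 with the mean of probes, 1 with scaled ratios and 0 with the scanner's, and the TRIF-labelled count of 0 became 1 with scaled ratios. The 4 h count of 5419 ran from 904 to 4939 with 1 pair left out. Scaling makes the spread of all arrays equal by construction, although the standard deviation of the ratios was 0.299, 0.264, 0.209 and 0.127 here. The cause of the other changes was not tested. Egr2 changed sign in MyD88-/- with scaled ratios (0.03), and Oas2, not called, did so against 0 (-0.04).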
